A study of Mus musculus with 8 samples.

Results

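The genes described here encode chromatin remodelers and histone-modifying enzymes, 46 genes chosen by name from the CHD, SWI/SNF, ISWI, ARID, SET-domain, acetyltransferase, polycomb and histone demethylase families. All 46 had a row among the 16279 genes of the input RNA table, and 27 of the 2114 differential N6-methyladenosine (m6A) peaks carried the name of 20 of them. The list was proposed with results of these data in view, so the input and peak values of the members are a description, and their counts support nothing about the group. The study used N2a cells, a mouse neuroblastoma line, transfected with a small interfering RNA against Emg1 (Emg1 knockdown) or with a control one (knockdown control) and collected 48 h later. Polyadenylated RNA was sequenced as input and after precipitation with an m6A antibody. The 8 libraries form 4 groups of 2, input and m6A IP for each treatment, and the labels do not say if both libraries of a group had a culture of their own, so p-values measure a spread that may be purely technical. All groups are the same cell line, and no other line or genotype was used.

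Chromatin remodelers are motor proteins that spend ATP to slide, evict or exchange nucleosomes, and the SWI/SNF complex is built around an ATPase, either SMARCA4 or SMARCA2. Histone-modifying enzymes add or remove methyl and acetyl groups on histone tails: the COMPASS-like KMT2 and SETD1 enzymes mark promoters and enhancers, the polycomb repressive complex PRC2 marks silent genes, and demethylases reverse such marks. In neural crest and neuroblastoma cells these families set which lineage genes stay accessible, and EMG1 is a nucleolar methyltransferase of 18S ribosomal RNA. The m6A mark is placed on mRNA mostly near stop codons and in long internal exons, and transcripts of large chromatin regulators have such exons.

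The tables hold no value per library, so every error below is the standard error (SE) of the authors' fit, and the depth of the libraries is unknown. Emg1 stood at 30.2% of control in input RNA, with a log2 fold change of -1.73 ± 0.11 (SE) in the authors' deposited table, and because of its sign a positive value is taken here as higher after knockdown. Of 10 neuroblastoma markers, 10 were listed, with mean normalized counts of 42.6 (Dbh) to 13352 (Stmn2) in the authors' deposited table. Of these markers 6 rose, and Th (-1.06 ± 0.32) and Stmn2 (-0.65 ± 0.06) fell in the authors' deposited table. Over all tested genes 17.1% rose and 15.5% fell. Of 7 fibroblast markers 4 were listed, of 5 leukocyte markers 3, and of 5 epithelial and endothelial markers 4. Mean counts ran from 33.7 to 1357 (Pdgfra), 3.96 to 930 (Cd74) and 7.81 to 407 (Pecam1) in the same order, in the authors' deposited table. Among these markers of other cell types, Pdgfrb (-0.98 ± 0.19) and Cd74 (-0.74 ± 0.12) fell and none rose in the authors' deposited table. No row was found for Ptprc, Adgre1, Epcam, Lum, Col1a2 and Col3a1. In bulk RNA, fewer cells of a kind and less RNA per cell cannot be told apart, and the part of such markers in the values below was not tested.

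In input RNA 29 of the 46 genes rose, 1 fell and 16 were not called (adjusted p of at least 0.05, DESeq2, the authors' deposited table). Those shares were 63.0% higher and 2.17% lower, where, among all 12807 tested genes, 17.1% rose and 15.5% were lower. The median log2 fold change of the members was 0.29, against a median of -0.0023 over all tested genes. Most changes were modest: 8 of the 29 rising genes had a log2 fold change of at least 0.5. Mean normalized counts of the members ran from 260.8 to 15683 with a median of 2967, against a median of 1038 over all tested genes, and 8 of the 46 lay below 1000. Among the 6536 tested genes with a mean of at least 1000, 26.1% rose and 19.3% fell, and of the 38 members in that range 25 rose and 1 fell. The plot of all genes by mean count shows the members as a band mostly above the zero line.

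**Figure D1:**
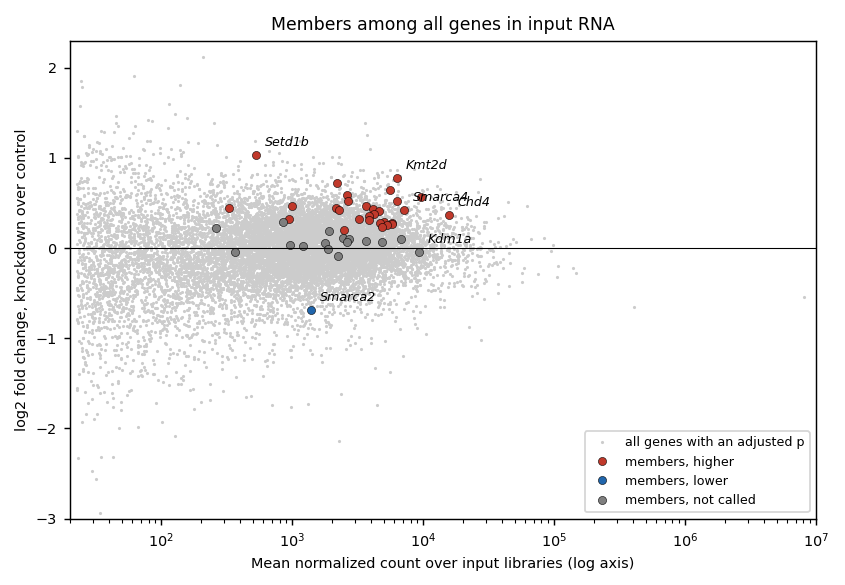
Input RNA log2 fold change (vertical axis, knockdown over control) against mean normalized count (horizontal log axis) for all 12807 genes with an adjusted p (grey) and the 46 members (large points, red for higher, blue for lower, dark grey for not called). The 29 members called higher lie between 0.20 and 1.03, and Smarca2 is the member called lower.

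The 6 enzymes of the family that methylates lysine 4 of histone H3 all rose. Among all tested genes 17.1% did, and 26.1% of those with a mean of at least 1000. Setd1b, the catalytic subunit of a COMPASS complex that trimethylates histones at promoters, had the highest value of the 46 genes at 1.03 ± 0.15 (log2, SE; adjusted p = 6.14e-11), a 2.04-fold rise, in the authors' deposited table. Its paralog Setd1a rose by 0.20 ± 0.08 (adjusted p = 0.0403), a call that was lost when p-values were adjusted over every gene (adjusted p = 0.0511) and when fold changes were centred (0.0639). Kmt2d, which marks enhancers, rose by 0.78 ± 0.06 (adjusted p = 8.34e-36), the smallest adjusted p among the members in the authors' deposited table. Kmt2c, its enhancer partner, rose by 0.29 ± 0.06 (adjusted p = 4.55e-05) in the authors' deposited table. Kmt2b rose by 0.59 ± 0.08 (adjusted p = 1.95e-12) and Kmt2a, the MLL1 gene rearranged in leukaemia, by 0.27 ± 0.06 (adjusted p = 0.000169) in the authors' deposited table. The 6 changes thus had the same direction, with amounts from 0.20 to 1.03, in a list chosen with these results in view.

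Of the 8 SWI/SNF genes among the members, 7 rose and Smarca2 fell, by 0.68 ± 0.10 on the log2 scale (adjusted p = 4.52e-10), to 0.623 of control in the authors' deposited table. Smarca4, which encodes the alternative ATPase BRG1, rose by 0.42 ± 0.06 (adjusted p = 2.19e-11) in the authors' deposited table. The difference between both ATPases was -1.11 ± 0.12 (Smarca2 minus Smarca4, SE of independent errors), the widest of the 15 paralog pairs. The scaffold subunits Smarcc2 (0.64 ± 0.06, adjusted p = 3.25e-23) and Smarcc1 (0.57 ± 0.06, adjusted p = 3.26e-20) rose alongside in the authors' deposited table. The DNA-binding ARID subunits of the canonical complex, which exclude each other, rose at 0.72 ± 0.09 for Arid1b (adjusted p = 1.40e-12) and 0.53 ± 0.06 for Arid1a (adjusted p = 8.14e-17) in the authors' deposited table. Smarcd1, a linker to transcription factors, rose by 0.28 ± 0.07, and Arid2, which defines the PBAF form, by 0.23 ± 0.06 (adjusted p = 0.00186) in the authors' deposited table. Among all tested genes 17.1% rose and 15.5% fell, and 26.1% and 19.3% of those with a mean of at least 1000. Subunits outside the members, 13 in the list of other remodelers, lay near those shares: 2 rose, 3 fell and 8 were not called. Named after their values were seen, those that fell were the core subunit gene Smarcb1 (-0.25 ± 0.08, adjusted p = 0.00523), the PBAF subunit gene Phf10 (-0.38 ± 0.09, adjusted p = 0.000165) and Dpf3 (-0.57 ± 0.22, adjusted p = 0.0323) in the authors' deposited table, and Smarce1 and Dpf2 rose.

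The promoters of the paired ATPase and scaffold genes are shown because Smarca2 fell where the other 3 genes rose. RefSeq promoters (GRCm38.p6, the build also called mm10) were matched for 32 of the 46 genes, by windows of 250 bases before a start site of that table. Some start sites lie inside the gene span of the gene table, so each sequence shown stops where that span begins. Capitals mark the GC box (GGGCGG, bound by SP factors) and the core of the NRF1 site (GCATGCGC), on either strand; matches could overlap.
Smarca2, chr19:26604910-26605072, plus strand: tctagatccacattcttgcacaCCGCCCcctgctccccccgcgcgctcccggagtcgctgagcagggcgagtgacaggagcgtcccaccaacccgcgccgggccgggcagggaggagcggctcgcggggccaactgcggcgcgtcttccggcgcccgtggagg
Smarca4, chr9:21615919-21616105, plus strand: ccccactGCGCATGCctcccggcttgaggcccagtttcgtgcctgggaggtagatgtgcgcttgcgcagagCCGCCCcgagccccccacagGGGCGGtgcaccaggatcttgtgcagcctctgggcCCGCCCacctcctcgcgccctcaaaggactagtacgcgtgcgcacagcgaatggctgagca
Smarcc1, chr9:110131774-110132023, plus strand: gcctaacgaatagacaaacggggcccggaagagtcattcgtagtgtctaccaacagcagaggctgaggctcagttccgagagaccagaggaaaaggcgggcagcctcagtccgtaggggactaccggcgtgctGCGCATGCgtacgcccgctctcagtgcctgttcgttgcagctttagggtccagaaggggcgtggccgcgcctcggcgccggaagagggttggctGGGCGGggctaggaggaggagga
Smarcc2, chr10:128458986-128459181, plus strand: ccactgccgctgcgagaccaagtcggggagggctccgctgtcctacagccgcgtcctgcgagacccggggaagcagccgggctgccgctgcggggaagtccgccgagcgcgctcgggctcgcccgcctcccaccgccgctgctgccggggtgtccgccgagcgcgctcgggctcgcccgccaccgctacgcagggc
The Smarca2 promoter as shown held 1 GC box and 0 NRF1 cores, that of Smarca4 3 and 1, that of Smarcc1 1 and 1, and that of Smarcc2 0 and 0. They held 21, 15, 21 and 30 CpG dinucleotides in 163, 187, 250 and 196 bases, in the same order. Over the full windows, 39 for the 32 matched genes, 66.7% held a GC box, against 32.7% of all 32851 promoters and 63.0% of the 6509 promoters of tested genes whose mean reached 1000, the comparison set. The share of member promoters with a GC box was thus close to that of other well expressed genes. The NRF1 core was in 3 member promoters (7.69%), those of Smarca4, Smarca5 and Smarcc1, and in 5.42% of the comparison set. The median CpG count was 23 in member promoters and 18 in the comparison set. The CCAAT box (CCAAT) was in 30.8% and 35.1%, and a common ETS site (CCGGAAG) in 7.69% and 15.5%, respectively. Neither CACGTG, the E-box, nor TGACGTCA, the cyclic AMP response element, was in a member promoter (8.94% and 2.87% of the comparison set). TATAAA was in that of Arid5b alone (5.50% of the comparison set). A match is a run of letters and not a measured binding site.

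Of the 8 CHD remodelers among the members, 6 rose, where 17.1% of all tested genes did and 26.1% of those with a mean of at least 1000. Named after their values were seen, Chd5 (-0.03 ± 0.09, adjusted p = 0.824) and Chd1l (-0.18 ± 0.12, adjusted p = 0.25), outside the members, were not called in the authors' deposited table. Chd7, mutated in CHARGE syndrome and needed in neural crest, rose by 0.52 ± 0.08 (adjusted p = 3.16e-09), and its relative Chd8 by 0.43 ± 0.08 (adjusted p = 2.59e-07) in the authors' deposited table. Chd4 and Chd3, which encode ATPases of the NuRD deacetylase complex, rose by 0.37 ± 0.05 (adjusted p = 3.51e-10) and 0.33 ± 0.07 (adjusted p = 3.75e-05) in the authors' deposited table. Chd1, which works with elongating polymerase, rose by 0.41 ± 0.07 (adjusted p = 2.40e-08) in the authors' deposited table. Its paralog Chd2 stood at -0.09 ± 0.08 (adjusted p = 0.433), a difference of 0.50 ± 0.11 (Chd1 minus Chd2). Chd6 rose by 0.31 ± 0.07 (adjusted p = 0.000124), and Chd9 was not called at 0.12 ± 0.08 in the authors' deposited table. Of the remaining ATPases, Ep400 rose by 0.26 ± 0.06 and the ISWI motor Smarca5 was not called at 0.07 ± 0.06 (adjusted p = 0.462) by the authors' deposited table.

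Both general acetyltransferases rose by nearly equal amounts. Ep300, which encodes p300, rose by 0.47 ± 0.07 (adjusted p = 3.52e-10) and Crebbp, which encodes CBP, by 0.44 ± 0.08 (adjusted p = 7.83e-07) in the authors' deposited table. Their difference was 0.03 ± 0.11 (Ep300 minus Crebbp). Of the enzymes that methylate lysine 36 of histone H3, Ash1l rose by 0.37 ± 0.07 and Setd2, which follows elongating polymerase, by 0.36 ± 0.09 in the authors' deposited table. Nsd1 was not called at -0.05 ± 0.17 (adjusted p = 0.871), with the lower mean count of 367.4 and a wider SE in the authors' deposited table. The SET-domain proteins Kmt2e and Setd5, whose enzymatic activity is not settled, stood at 0.07 ± 0.09 and 0.11 ± 0.06 (adjusted p = 0.588 and 0.163) in the authors' deposited table.

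Polycomb and demethylase members stayed uncalled in 3 of 4 and 3 of 5 cases. Over all tested genes 8633 of 12807 were not called, so these counts set neither group apart. Of the 4 PRC2 genes Ezh2, the main catalytic subunit of dividing cells, rose, by 0.27 ± 0.07 (adjusted p = 0.000263) in the authors' deposited table. Ezh1, its paralog of resting cells, stood at 0.03 ± 0.11 (adjusted p = 0.884), Suz12 at 0.08 ± 0.08 and Eed, which reads the PRC2 mark, at -0.01 ± 0.09 (adjusted p = 0.968) by the authors' deposited table. Of 5 demethylase genes, Kdm6b, which removes the PRC2 mark, rose by 0.42 ± 0.09 (adjusted p = 4.28e-05) and Kdm2b, a recruiter of variant PRC1, by 0.32 ± 0.12 (adjusted p = 0.0277) in the authors' deposited table. Kdm2a (0.10 ± 0.08, adjusted p = 0.346), Kdm4a (0.05 ± 0.09) and Kdm1a, the LSD1 gene (-0.05 ± 0.06, adjusted p = 0.61), were not called in the authors' deposited table. Of 6 further ARID genes, DNA-binding proteins outside SWI/SNF, 2 rose: Arid3a by 0.46 ± 0.11 (adjusted p = 0.000257) and Arid5a by 0.45 ± 0.18 (adjusted p = 0.0451) in the authors' deposited table. The call of Arid5a was lost with adjustment over every gene (adjusted p = 0.057) and with centring (0.063). Their paralogs Arid3b (0.23 ± 0.22, adjusted p = 0.472) and Arid5b (0.29 ± 0.12, adjusted p = 0.0613) were not called, nor were Arid4a (0.03 ± 0.11) and Arid4b (0.19 ± 0.08) in the authors' deposited table.

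**Figure D2:**
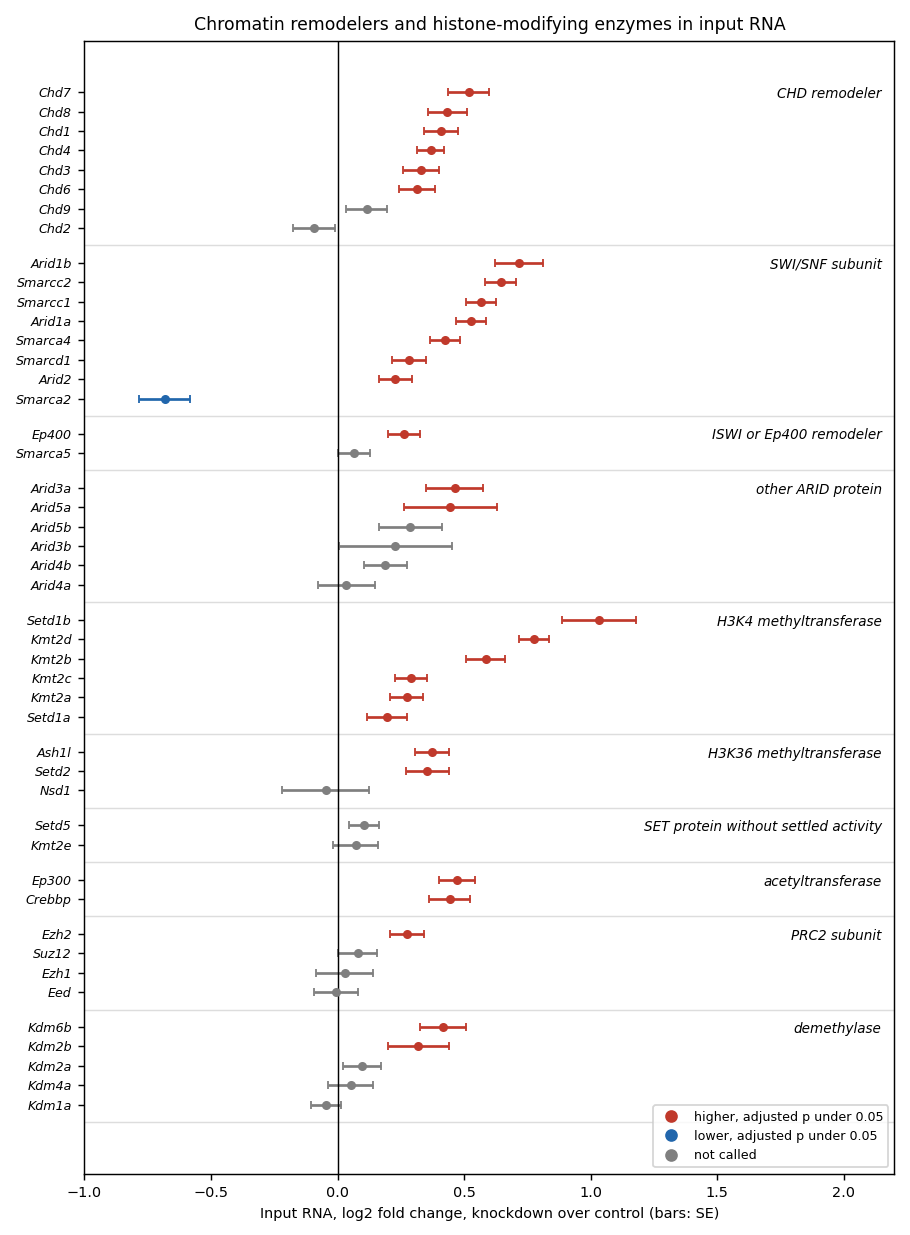
Input RNA log2 fold change with its SE (horizontal axis, knockdown over control) for each of the 46 genes, grouped by role and coloured by call at an adjusted p under 0.05. All 6 genes of the family that methylates lysine 4 of histone H3 and 7 of the 8 SWI/SNF members are called higher, and 1 of 4 PRC2 genes is. The share called higher among all tested genes is 17.1%.

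Across the 15 paralog pairs, both genes rose in 8 and neither was called in 1. In 5 pairs 1 gene rose and the other was not called, and the SMARCA ATPases were the 1 pair with opposite calls. A call in 1 gene and not in the other does not show that they differ. Of those 5 pairs, Chd1 and Chd2 differed by 0.50 ± 0.11, while Ezh1 minus Ezh2 was -0.25 ± 0.13 and Kdm2a minus Kdm2b was -0.22 ± 0.14. Arid3a minus Arid3b was 0.23 ± 0.25 and Arid5a minus Arid5b 0.16 ± 0.22, smaller than their SE. Among pairs in which both rose, wide gaps were those of Setd1a minus Setd1b (-0.83 ± 0.17), Kmt2c minus Kmt2d (-0.48 ± 0.09) and Kmt2a minus Kmt2b (-0.31 ± 0.10). Arid1a minus Arid1b was -0.19 ± 0.11, and the SMARCC, CHD3/4, CHD7/8 and p300/CBP pairs differed by less than their SE.

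**Figure D3:**
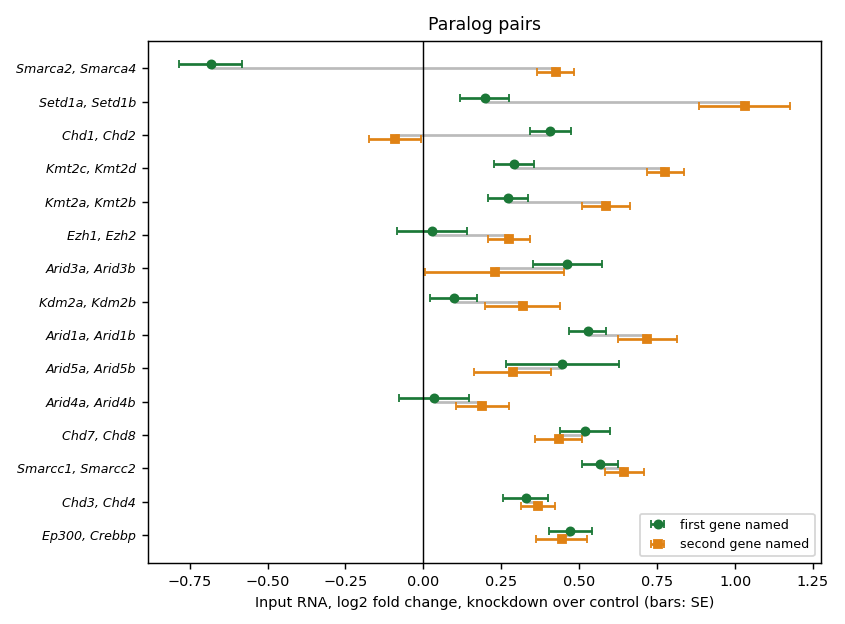
Input RNA log2 fold change with its SE (horizontal axis, knockdown over control) of both genes of each of 15 paralog pairs, ordered by the size of their difference. Smarca2 and Smarca4 lie on opposite sides of 0, at -0.68 and 0.42, and Ep300 and Crebbp lie together at 0.47 and 0.44.

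Differential m6A peaks were on 20 of the 46 genes (43.5%), where 14.8% of all tested genes carried one and 22.8% of those with a mean of at least 1000. In that range 19 of 38 members carried one. Of the 27 peaks, 12 had a positive and 15 a negative change, and the sign is given as deposited, since the header does not name the numerator condition. Positive-change peaks were on 7 members (15.2%, against 7.21% of tested genes) and negative-change peaks on 13 (28.3%, against 7.89%), and no member had both. Among the 6536 tested genes with a mean of at least 1000, 666 carried a positive-change and 860 a negative-change peak. Of the 38 members in that range, 7 and 12 did. Peak changes come without an error, and the largest false discovery rate (FDR) in the list was 0.0282. Changes of members lay between -1.51 and 1.26 with a median size of 0.72 (log2), against 0.74 over all 2114 peaks. The IP enrichment over input, a value the authors give for each peak, had a median of 10.8 in the members and 5.525 in the whole list.

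Of the 7 members with more than 1 differential peak, all 7 had peaks of the same sign, as did 146 of the 183 such genes in the list (79.8%). Kmt2a carried the highest positive change of the members, 1.26 (fold enrichment 15.2, FDR 1e-10) at chr9:44807524-44808124, and another peak with a change of 0.808 (enrichment 4.43) at 76.2% of the gene span, in the authors' deposited table. Kmt2c carried changes of 0.658 and 0.704 with enrichments of 22.4 and 27.1 in the authors' deposited table. Its paralog Kmt2d had negative changes of -1.08 (enrichment 4.36, FDR 1.82e-07) at chr15:98845448-98846318 and -0.558 (enrichment 24.8) at chr15:98849502-98850972 in the authors' deposited table. The KMT2C and KMT2D transcripts, both higher in input, thus carried peaks of opposite sign.

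Chd8 had changes of 0.751 and 0.915, the latter on a strongly enriched block of 601 bases (47.4-fold) at chr14:52236972-52237572, in the authors' deposited table. Chd6 had 0.713 at an enrichment of 36.3 and 1.2 at an enrichment of only 1.59 in the authors' deposited table. Both Chd4 peaks were negative, -1.34 near the gene start and -0.477 at the gene end, and weakly enriched at 1.40 and 1.60 in the authors' deposited table. Single negative peaks lay on Chd7 (-0.705, enrichment 11.9), Chd3 (-0.699, enrichment 2.42) and Chd1 (-0.34, enrichment 17.7) in the authors' deposited table. CHD genes therefore held 4 positive and 5 negative peaks on 2 and 4 genes.

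Both acetyltransferase genes carried a long negative-change peak near the gene end. That on Ep300 spanned 2308 bases at chr15:81649081-81651388, with a change of -0.443 and an enrichment of 50, the highest among the members' peaks, in the authors' deposited table. That on Crebbp spanned 1945 bases at chr16:4084048-4085992, with a change of -0.761 and an enrichment of 21.9 in the authors' deposited table. Their midpoints lay at 97.2% of the gene span in each. Ep300 and Crebbp thus matched in input change, in the sign of the peak and in its place. Of the 4 paralog pairs with peaks on both genes, Chd3 and Chd4 also shared a sign. Chd7 and Chd8 had opposite signs, as did Kmt2c and Kmt2d. A midpoint in the last 10% of the gene span was found for 44.4% of the members' peaks and 36.1% of the list.

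Of the 8 SWI/SNF members 2 carried a differential peak, where 14.8% of all tested genes did and 22.8% of those with a mean of at least 1000. The 2 were Smarcc2 (-0.689, enrichment 5.74, over 5 blocks) and Arid2 (-0.42, enrichment 8.63) in the authors' deposited table, and Smarca2 and Smarca4 carried none. Nsd1 had the lowest change of all members, -1.51 (enrichment 10.8, FDR 0.0038) at chr13:55312427-55313026, in the authors' deposited table. Eed (-0.852, enrichment 2.42) and Smarca5 (-0.603, enrichment 1.47) had weakly enriched negative peaks in the authors' deposited table. Kdm6b had a negative change of -0.776 (enrichment 27.1) on a block of 1587 bases in the authors' deposited table. The other demethylase peaks were positive: 0.43 and 0.72 on Kdm2a (enrichment 26.7 and 8.11), and 1.01 on Kdm1a (enrichment 7.07, FDR 1e-27) at chr4:136550533-136550802 in the authors' deposited table. The Kdm1a peak ends at the annotated gene end and also overlaps the gene Luzp1, so its reads may belong to either where strand was not used. Setd5 had a positive change of 0.988 (enrichment 9.89, FDR 7.94e-19) in the authors' deposited table, and 1 of the Chd8 peaks overlaps the non-coding gene Gm26590.

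**Figure D4:**
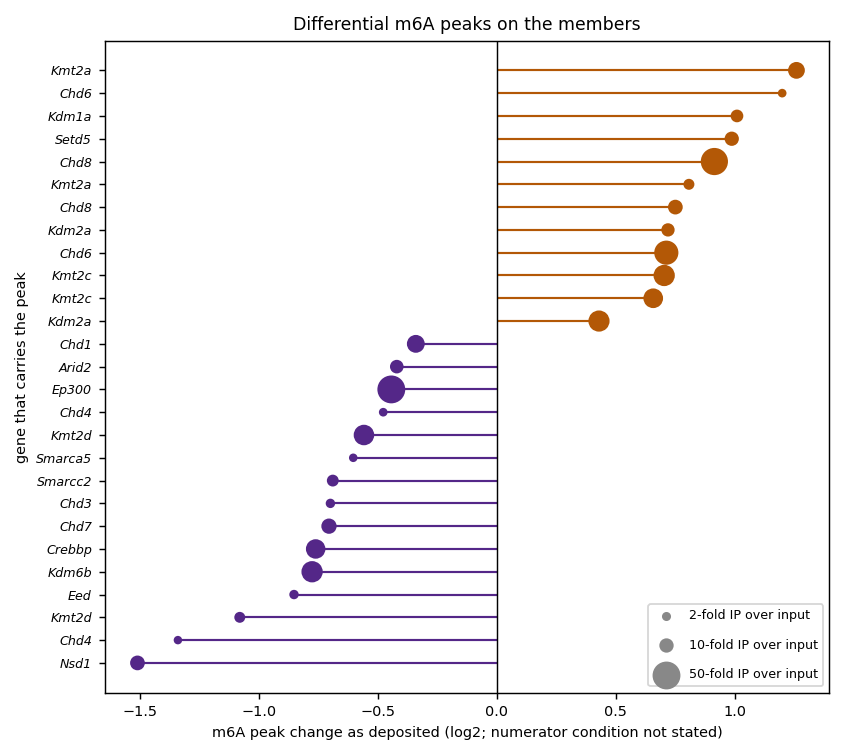
Change of each of the 27 differential m6A peaks (horizontal axis, log2, sign as deposited) by the gene that carries it, with circle area rising with fold enrichment of IP over input. The 12 positive changes run from 0.43 to 1.26 and the 15 negative ones from -1.51 to -0.34.

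Input and peak values stand side by side here without a test, since the peak change may draw on the same input libraries. Of the 13 members with negative-change peaks, 10 rose in input and 3 were not called (Nsd1, Eed and Smarca5), with a median input log2 fold change of 0.41. Of the 7 with positive-change peaks, 4 rose (Chd6, Chd8, Kmt2a and Kmt2c) and 3 were not called (Kdm1a, Kdm2a and Setd5), with a median of 0.27. The 26 members without a differential peak had 15 that rose and 1 that fell, with a median of 0.28. So members rose in input with and without a differential peak.

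The median midpoint of the 27 peaks lay at 88.6% of the gene span, towards the gene end, against 77.9% over the list. It was in the last 10% of the span, introns included, for 12 of 27 member peaks (44.4%), against 36.1% of the 2026 peaks of the list that could be placed. By sign it was 6 of 12 positive-change peaks and 6 of 15 negative-change peaks, where the whole list had 49.5% and 24.2%. Only Chd4 (8.32% of span) and Eed (8.43%) had a peak in the first 10%, both with negative change. Peaks far from either end included the strongly enriched Chd8 peak at 34.7% of span, the Kmt2d peaks at 56.2% and 66.5%, and the Kmt2c peak at 56.6%. Of the 27 peaks 14 were a single block (51.9%, against 50.6% of the list), and the summed block length ran from 61 to 2308 bases with a median of 601. Whether a peak lay in coding or untranslated sequence was not analysed here.

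**Figure D5:**
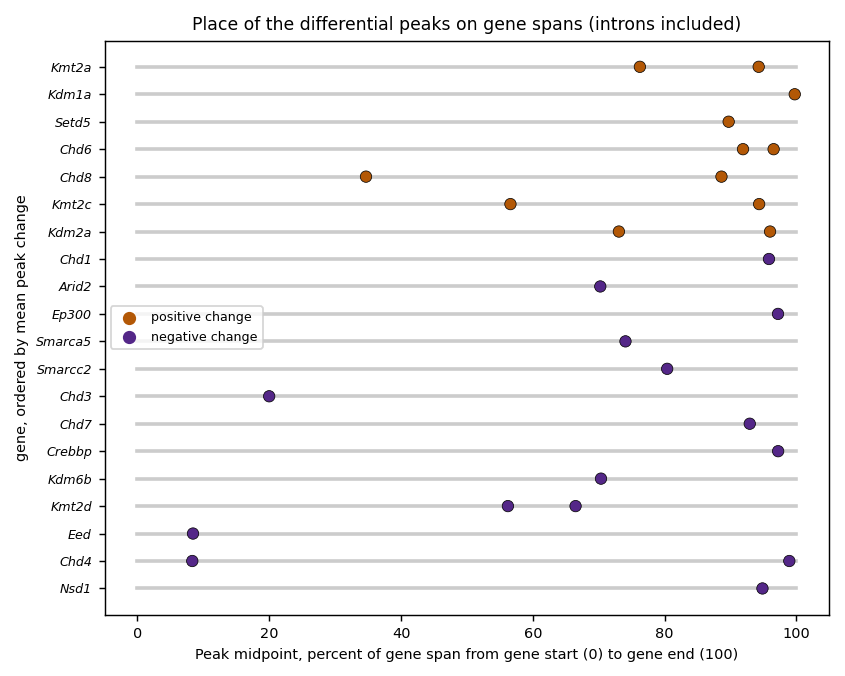
Midpoint of each differential m6A peak as a percent of the gene span (horizontal axis, 0 at the gene start, 100 at the gene end, introns included) for the 20 genes that carry one, ordered by mean change. Each gene holds peaks of 1 sign, and 12 of the 27 midpoints lie beyond 90%.

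The members are long genes, with a median span of 73686 bases (11709 to 353360) against 23794 for the 10592 genes of known span whose mean reached 100. Across those genes the share that rose was 11.1% below 5 kb and 23.4% at 100 kb or more, and the Spearman correlation of span and log2 fold change was 0.10, a description over genes that share libraries. Within the 46 members it was -0.10. Of the 16 members of at least 100 kb 10 rose, and of the 15 members between 20 and 50 kb 9 did. Span is a property of the unspliced gene, and transcript length was not analysed here.

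Of 156 other chromatin genes in 8 lists, 154 had a row and 153 an adjusted p, and 56 rose and 11 fell, with a median of 0.12. Over all tested genes 17.1% rose and 15.5% fell, and 26.1% and 19.3% of those with a mean of at least 1000. The median mean count of the other chromatin genes was 2575, and the counts per list below are a description. All 5 genes in the list of bromodomain readers rose, with a median of 0.27. Brd2, a bromodomain reader of acetylated histones, rose by 0.42 ± 0.05 in the authors' deposited table. Of 24 other methyltransferase genes 11 rose and 0 fell, led by Setd7 at 0.75 ± 0.07 and Dot1l, which methylates the core of histone H3, at 0.63 ± 0.07 in the authors' deposited table. Of 10 subunits and cofactors of COMPASS complexes, not all of them shared, 4 rose, 0 fell and 6 were not called. Paxip1 rose by 0.56 ± 0.08 and Hcfc1 by 0.37 ± 0.06 in the authors' deposited table. Named after their values were seen, Ash2l (0.12 ± 0.06), Wdr5 (-0.10 ± 0.07), Rbbp5 (0.07 ± 0.09) and Dpy30 (0.11 ± 0.09) were not called in the authors' deposited table. Other remodelers rose in 10 of 30 cases and fell in 3, with Hells at 0.49 ± 0.06 and Srcap at 0.56 ± 0.07 by the authors' deposited table. In the list of NuRD and deacetylase genes 9 of 28 rose and 2 fell, and the deacetylase gene Hdac2 fell by 0.78 ± 0.06 in the authors' deposited table. Other acetyltransferase genes and their partners rose in 7 of 17 cases and fell in 1, with Brpf1 at 0.45 ± 0.08 and Kat6a at 0.40 ± 0.07 in the authors' deposited table. Other polycomb genes rose in 7 of 24 cases and fell in 1, with Asxl1 at 0.51 ± 0.07 and Mtf2 at 0.48 ± 0.08 in the authors' deposited table. Other demethylase genes rose in 3 of 15 cases and fell in 4, with Kdm5b falling by 0.48 ± 0.09 and Phf2 rising by 0.50 ± 0.10 in the authors' deposited table. These lists hold 33 genes with 36 differential peaks, 10 positive and 26 negative. A differential peak was on 14.8% of all tested genes and on 22.8% of those with a mean of at least 1000. Of all 2114 peaks, 53.1% had a negative change.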

How the data were processed

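RNA of 8 libraries was measured, and the files used here are 2 tables of the authors' own results with no value per library. The tools named in the submitters' processing notes are Trimmomatic, HISAT2 and DESeq2, and the build is mm10. The sources used here do not name a read counter, a peak caller, tool versions or a pooling of replicates. Per the file headers, the mean column of the input table is a signal (mean normalized count), and the fold change and SE are log2 values. The Wald statistic deposited by the authors is a score, and in all 16279 genes it was the ratio of fold change to SE (within 1e-06), and their adjusted p-value was Benjamini-Hochberg over 12807 genes. In the peak list the authors deposited a fold enrichment ratio, a log2 change, and the log10 of an FDR, treated as a score. Peak starts were written 1-based.

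A gene counts as called where the deposited adjusted p was under 0.05, since no count model could be refitted. The SE of a difference between paralogs assumes independent errors. The step that recomputes Wald p-values was tested on simulated data. Every member is named, with full statistics for the 6 largest called changes, for carriers of a peak and for paralogs with unlike calls, and in other lists the genes with the 2 smallest adjusted p, of which 2 genes are not reported here. Gene spans and promoters came from RefSeq tables of GRCm38.p6, and 6 genes of other lists were matched through older symbols. Members, lists and tests were chosen with earlier results of these data known. The comparison with protein length was planned and not analysed here, and gene span, chosen after seeing the data, was used in its place. So was the comparison with genes of a mean of at least 1000. Versions were matplotlib 3.10.9, scipy 1.17.1, pandas 2.3.3, numpy 2.4.6 and Python 3.11.15.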

Additional observations from a re-analysis of the deposited data

How the results depend on the processing

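No paired analysis was possible because the tables hold no value per library, and for the same reason no replicate could be left out. The count of members called higher was 29 and fell to 8 when a log2 change of at least 0.5 was also asked for. It lay between 26 and 31 with thresholds of 0.01 and 0.1, and was 29 with a mean of at least 100. The single fall, Smarca2, was called under each of these settings. With only peaks of 1 block, 12 members carried a differential peak, with 8 negative and 6 positive changes in place of 15 and 12. Centring on the median gene among those whose mean reached 100 (a shift of 0.0077) and adjustment over every gene each ended the same 2 calls, those of Arid5a and Setd1a, and the other 44 members kept their call and direction. With an enrichment of at least 2, 18 members carried a peak (12 negative and 11 positive changes), and with an FDR under 0.01 or overlap with the gene span the counts did not move. The correlation with span was 0.076 to 0.12 over all genes and -0.10 to -0.054 in the members for no minimum mean and a minimum of 500. Library depth is unknown, so the precision is that of the authors' SE alone.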
